A study of Homo sapiens with 9 samples.

Results

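SGK1, TSC22D3 and a small set of other genes known to answer to glucocorticoids were followed in GM12878, an Epstein-Barr virus-transformed human lymphoblastoid B-cell line. The set was selected on the array values of SGK1 and TSC22D3, the first lower and the second higher after sulforaphane, so the values of these 2 genes are given as a description, without a test. A gene was measured where a transcript cluster, the array's unit for one gene, carried its symbol and no other. Of 8 proposed symbols, 6 had such a cluster (1 each, among 14232 genes with one): SGK1, TSC22D3, NR3C1, PER1, DUSP1 and KLF9. SGK3 and FKBP5 lay on clusters that also carried another symbol and were not analysed as members.

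Cells were seeded at 900000 per ml in medium with 15% serum and hybridised to Human Exon 1.0 ST arrays, 1 array per culture. Of the 9 cultures, 3 were harvested untreated at 0 h, 3 after 8 h and 3 after 24 h in 10 µM D,L-sulforaphane, an isothiocyanate of cruciferous vegetables. The labels name no glucocorticoid among the additions to any group, and the hormone content of the serum is not given in the sources used here. No array of cells kept for 8 or 24 h without sulforaphane or in vehicle was used here. The treatment protocol mentions a DMSO vehicle, while the 0 h cultures are called untreated. Sulforaphane, any vehicle and time in culture therefore cannot be told apart. Mean signal per array lay between 7.97 and 8.14 on the log2 scale. Untreated replicate 2 stood apart, with 14.8% of the 22011 clusters lower by more than 0.5 than the mean of the other untreated arrays and 1.59% higher. Of 8 B-lymphocyte markers 7 were measured, and their mean log2 signal lay between 11.77 and 11.90 on every array. It was 6.64 to 6.95 for 5 T-cell, 6.31 to 6.58 for 5 monocyte and 6.89 to 7.18 for 4 natural killer markers. It was 6.84 to 7.03 for 4 fibroblast and 7.65 to 7.90 for 4 epithelial markers, and 6.79 to 7.17 for 1 erythroid marker. Single markers departed from this order: untreated, the epithelial KRT8 averaged 11.34 and the B-cell BLK 9.49. Probe sets of different genes do not share a scale, so these means are a description only, and levels are compared below only within a gene.

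Glucocorticoids enter the cell and bind the glucocorticoid receptor, encoded by NR3C1, which waits in the cytoplasm in a complex with HSP90 and its co-chaperones. The bound receptor moves to the nucleus, where it activates genes through paired half-sites in DNA and restrains inflammatory genes by interfering with NF-kB and AP-1. In lymphocytes, TSC22D3 (also called GILZ) is among its best known targets and dampens inflammatory signalling. SGK1 is a protein kinase related to AKT, induced by serum as well as by glucocorticoids, that is switched on by mTORC2 and PDK1 and phosphorylates FOXO factors. Many of these genes have other inputs too: TSC22D3 is also a FOXO target, and SGK1, DUSP1 and KLF family genes answer to serum and stress.

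The RefSeq promoter windows of the genes (300 bases on GRCh38.p14, from 250 bases before a transcript start) are shown for SGK1 and TSC22D3, which differed in direction, and for DUSP1, whose window held the most full motif matches. All 3 genes lie on the minus strand, and the sequences run 5′ to 3′ along the gene. Capitals mark full matches to the glucocorticoid response element GNACANNNTGTNC, the cyclic AMP response element TGACGTCA, the FOXO site TGTTTAC, the E-box CACGTG or the TATA box TATAAA, searched on both strands.
SGK1 chr6:134174817-134175116: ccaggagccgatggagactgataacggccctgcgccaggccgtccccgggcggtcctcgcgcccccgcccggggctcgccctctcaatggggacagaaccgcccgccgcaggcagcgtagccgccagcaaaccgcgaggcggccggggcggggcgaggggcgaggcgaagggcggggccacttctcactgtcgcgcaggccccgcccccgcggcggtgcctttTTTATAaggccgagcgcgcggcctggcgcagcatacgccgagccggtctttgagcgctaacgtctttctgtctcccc
TSC22D3 chrX:107717013-107717312: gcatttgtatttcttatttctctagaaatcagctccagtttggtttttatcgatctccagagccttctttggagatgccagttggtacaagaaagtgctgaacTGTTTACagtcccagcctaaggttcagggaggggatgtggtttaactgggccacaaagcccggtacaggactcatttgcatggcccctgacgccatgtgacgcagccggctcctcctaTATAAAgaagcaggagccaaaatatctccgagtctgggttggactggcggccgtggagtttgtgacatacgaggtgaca
DUSP1 chr5:172771146-172771445: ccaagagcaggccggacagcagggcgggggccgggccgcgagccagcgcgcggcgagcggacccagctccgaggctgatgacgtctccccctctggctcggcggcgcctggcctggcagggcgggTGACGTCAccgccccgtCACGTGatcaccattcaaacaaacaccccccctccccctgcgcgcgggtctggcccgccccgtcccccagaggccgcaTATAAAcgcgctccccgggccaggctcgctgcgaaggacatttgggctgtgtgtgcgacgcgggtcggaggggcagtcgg
The SGK1 window, 1 of 3 for this gene, held 1 match, to the TATA box on the opposite strand, with its first base at position -27 from the transcript start. The TSC22D3 window, 1 of 4, held a FOXO match at -147 and a TATA match at -29. The DUSP1 window held the cyclic AMP response element at -125, an E-box at -108 and a TATA box at -30. The members had 17 windows in all, 7 of them for NR3C1, 4 for TSC22D3 and 3 for SGK1. Some windows of one gene overlap, so the 17 are not independent and their counts are not read as enrichment. The full glucocorticoid response element was in 0 of the 17 and in 0.39% of all 35116 windows, and the FOXO letters were in 2 of the 17 (TSC22D3 and NR3C1) and in 3.42% of all. The cyclic AMP response element was in 1 of the 17 and 1.85% of all, the E-box in 2 (DUSP1 and PER1) and 7.26%, and the TATA box in 6 and 11.5%. All 3 SGK1 windows were among these 6, with matches on the opposite strand at -96 and -27 and on the same strand at -15. The TATA matches ranged from -187 (NR3C1) to -15 (SGK1), so their letters alone do not mark a TATA box in use. Also searched and left in lower case were the half-site TGACG, part of the cyclic AMP response element (7 of the 17, 24.6% of all), and the antioxidant response element core TGACNNNGC, which can overlap it (3 of the 17, 13.3% of all). These matches describe the letters in the windows, and a window without a match says nothing of a factor bound elsewhere.

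SGK1 (cluster 2975014) was lower at both times. Its log2 signal was 8.37, 7.80 and 8.43 on the untreated arrays, 7.03, 7.34 and 7.00 at 8 h, and 7.06, 6.97 and 7.20 at 24 h. All 6 arrays of treated cells lay below all 3 untreated arrays, and the arrays at 8 h and 24 h overlapped. The means were 8.20 ± 0.35 untreated, 7.12 ± 0.19 at 8 h and 7.08 ± 0.12 at 24 h (SD, n = 3 each). The difference from untreated was -1.07 ± 0.17 at 8 h and -1.12 ± 0.17 at 24 h (SE), or 2.10-fold and 2.18-fold lower. It was the 10th lowest of the 22011 differences at 8 h and the 17th lowest at 24 h. Between 24 h and 8 h the difference was -0.05 ± 0.17. Untreated replicate 2 had the lowest untreated SGK1 signal, 0.60 below the mean of the other 2, and without it the differences were -1.27 at 8 h and -1.32 at 24 h. In bulk RNA, fewer cells with SGK1 transcript and less transcript per cell cannot be told apart, here and for every gene below.

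TSC22D3 (cluster 4017381) was higher at 24 h. Its log2 signal was 9.20, 9.13 and 9.12 on the untreated arrays, 9.25, 9.21 and 9.27 at 8 h, and 9.60, 9.57 and 9.62 at 24 h. All arrays at 24 h lay above all others, and those at 8 h lay above the untreated arrays by a small margin. The means were 9.15 ± 0.043 untreated, 9.24 ± 0.031 at 8 h and 9.60 ± 0.022 at 24 h (SD, n = 3 each), so replicates lay closer together than for SGK1. The difference from untreated was 0.09 ± 0.05 at 8 h and 0.45 ± 0.05 at 24 h (SE), the second of them 1.37-fold. Most of it arose after 8 h, with a difference of 0.36 ± 0.05 between 24 h and 8 h. Its 24 h difference ranked 1977th from the highest of the 22011 clusters. SGK1 was thus low by 8 h, while TSC22D3 stood clearly apart only at 24 h. Quantile normalization of the deposited values brought the TSC22D3 difference at 24 h to 0.32.

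**Figure D1:**
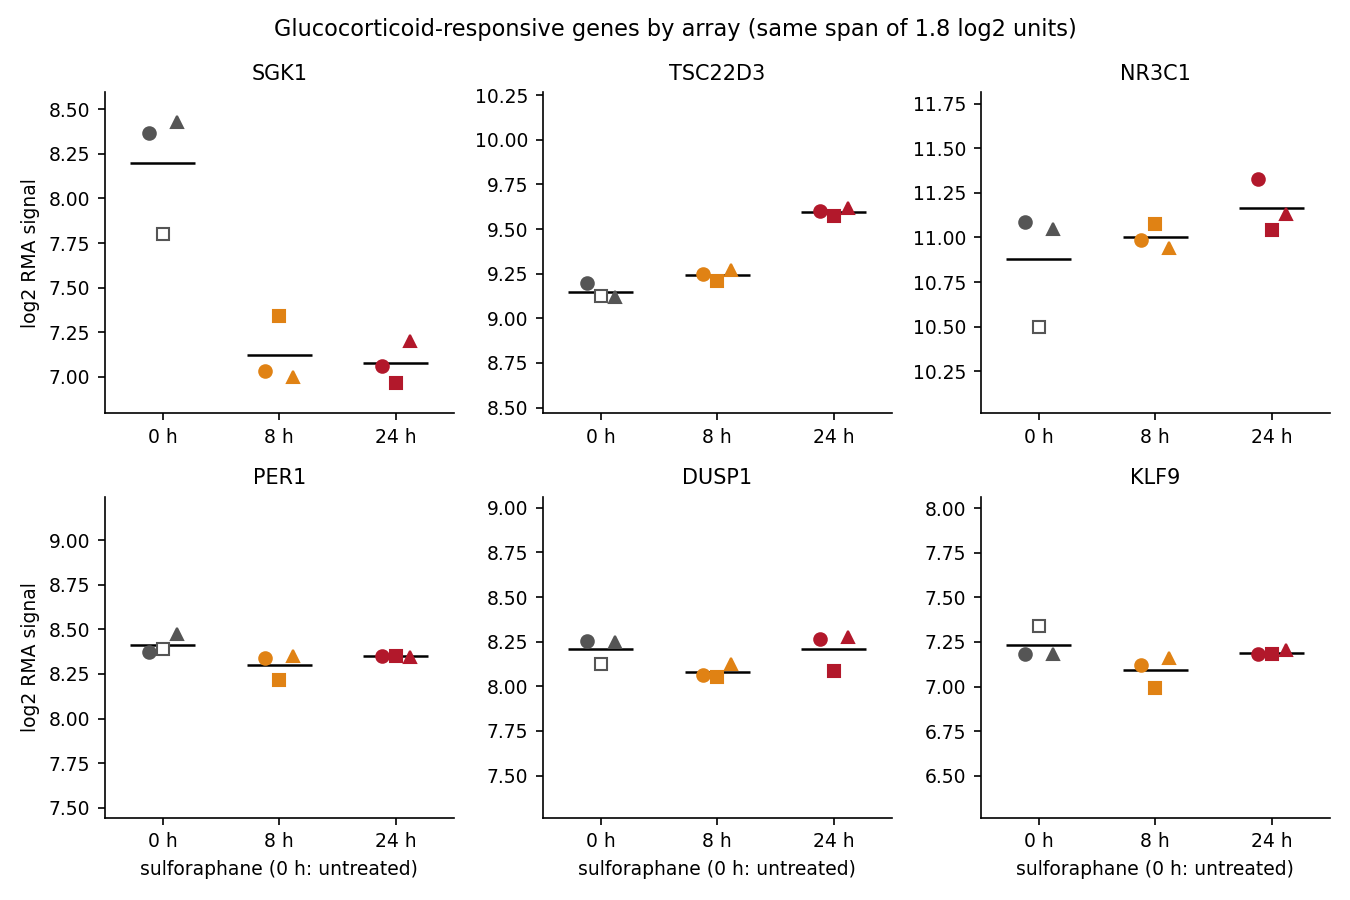
Log2 RMA signal of the 6 measured genes on each array (y axis) in untreated cells (0 h, grey), after 8 h (orange) and after 24 h (red) of 10 µM sulforaphane. Circles, squares and triangles are replicates 1, 2 and 3, the hollow square is untreated replicate 2, and lines are group means. Each panel spans 1.8 log2 units. SGK1 lies below its untreated arrays at both times, TSC22D3 lies above them at 24 h, and the panels of PER1, DUSP1 and KLF9 are nearly flat at this scale. No detection limit was set.

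The other 4 genes allow a test, with 1 mean per group fitted over all 9 arrays by limma and p-values adjusted over all 22011 clusters. None passed an adjusted p of 0.05: 0 of 4 at 8 h, where 0.595% of all clusters passed, 0 of 4 at 24 h, where 1.62% passed, and 0 of 4 between 24 h and 8 h, where 0.327% passed. None had an unadjusted limma p under 0.05 in any of the 3 comparisons. The share of all clusters under that unadjusted threshold was not counted. Such counts, here and for the lists below, therefore have no background beside them and are not read as a result about the genes. Their median difference from untreated was -0.12 at 8 h and -0.02 at 24 h, against -0.01 and 0.02 over all clusters. Arrays did not overlap for 2 of the 4 at 8 h (17.6% of all clusters), for 1 at 24 h (24.3%) and for 1 between 24 h and 8 h (21.6%).

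NR3C1, the receptor itself (cluster 2879312), had log2 signals of 11.09, 10.50 and 11.05 untreated, 10.99, 11.07 and 10.94 at 8 h, and 11.33, 11.04 and 11.13 at 24 h. The groups overlapped, and the lowest value was that of untreated replicate 2. The difference from untreated was 0.12 ± 0.16 at 8 h (95% interval -0.24 to 0.48, limma adjusted p = 0.72) and 0.29 ± 0.16 at 24 h (-0.07 to 0.65, adjusted p = 0.31). Untreated replicate 2 set the sign at 8 h: without it the differences were -0.07 and 0.10.

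PER1, a repressor of the circadian clock (cluster 3744150), had log2 signals of 8.37, 8.39 and 8.47 untreated, 8.34, 8.21 and 8.35 at 8 h, and 8.35, 8.35 and 8.34 at 24 h. Arrays of treated cells lay below the untreated ones at both times, by margins of a few hundredths of a log2 unit. The difference was -0.11 ± 0.06 at 8 h (95% interval -0.25 to 0.03, limma adjusted p = 0.41) and -0.06 ± 0.06 at 24 h (-0.20 to 0.07, adjusted p = 0.53). DUSP1, a phosphatase that inactivates p38 and JNK (cluster 2887309), had 8.25, 8.12 and 8.25 untreated, 8.06, 8.05 and 8.13 at 8 h, and 8.27, 8.09 and 8.28 at 24 h. Its groups overlapped at both times, with differences of -0.13 ± 0.07 at 8 h (-0.29 to 0.04, adjusted p = 0.43) and 0.00 ± 0.07 at 24 h (-0.16 to 0.17, adjusted p = 0.99). KLF9, a zinc-finger repressor induced by glucocorticoids and thyroid hormone (cluster 3208995), had 7.18, 7.34 and 7.18 untreated, 7.12, 6.99 and 7.16 at 8 h, and 7.18, 7.18 and 7.21 at 24 h. It was below untreated on all 8 h arrays, by -0.14 ± 0.07 (-0.30 to 0.02, adjusted p = 0.38), and differed by -0.04 ± 0.07 at 24 h (-0.21 to 0.12, adjusted p = 0.71). KLF9 took 6 distinct values on the 9 arrays. No detection limit was set, and markers of other lineages had signals of similar size or higher (COL1A1 8.44, MPO 7.35 and the natural killer NKG7 9.21 untreated). A flat signal of PER1, DUSP1 or KLF9 therefore cannot be told from probe background. The same limit holds for SGK1 after treatment, with means of 7.12 and 7.08. Untreated SGK1 (8.20) and TSC22D3 (9.15) also lay within the range of these markers, though their signals were not flat. Single arrays moved these small values: at 8 h PER1 differed by -0.07 without 8 h replicate 2, and KLF9 by -0.09 without that array or without untreated replicate 2.

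**Figure D2:**
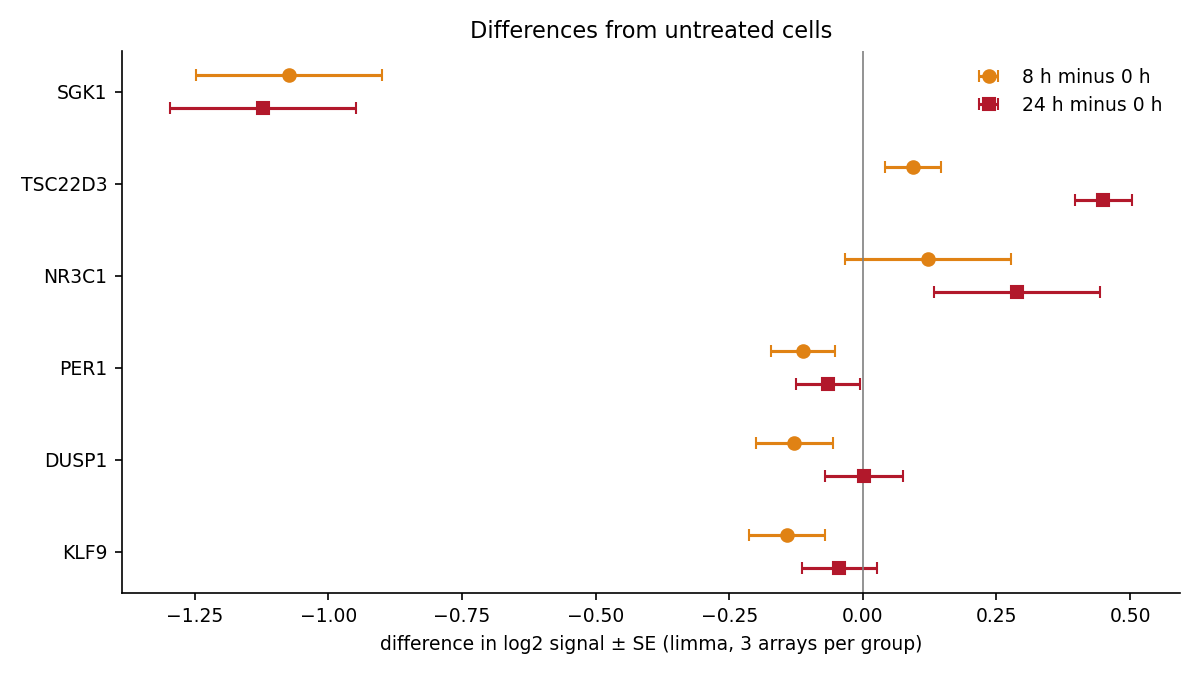
Difference in log2 signal from untreated cells (x axis) for the 6 genes at 8 h (orange circles) and 24 h (red squares). Bars are standard errors from limma, 3 arrays per group. SGK1 lies near -1.07 and -1.12, TSC22D3 at 0.09 and 0.45, and the other 4 between -0.14 and 0.29.

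Among the genes that serve the receptor, 2 chaperones rose at 8 h and were back near or below the untreated level at 24 h. Of 12 measured genes for the receptor, its hormone enzymes, chaperones and coregulators, 2 rose and 0 fell at 8 h (0.268% of all clusters rose and 0.327% fell), and 0 of 12 passed at 24 h, with 2 at an unadjusted limma p under 0.05. Between 24 h and 8 h the same count was 0 higher and 2 lower (0.1% and 0.227% of all clusters). HSP90AA1, an isoform of HSP90, had 12.19, 12.12 and 12.16 untreated, 12.90, 12.62 and 12.90 at 8 h, and 12.23, 12.19 and 12.07 at 24 h. It rose by 0.65 ± 0.09 at 8 h (limma adjusted p = 0.026) and stood at 0.00 ± 0.09 from untreated at 24 h (adjusted p = 0.99). STIP1, the co-chaperone that links HSP70 to HSP90, had 12.05, 12.04 and 12.02 untreated, 12.54, 12.44 and 12.47 at 8 h, and 11.87, 11.91 and 11.90 at 24 h, a rise of 0.44 ± 0.05 at 8 h (adjusted p = 0.017). In both genes every 8 h array lay above every other array. NCOA1, a coactivator of the receptor, differed by 0.55 ± 0.19 at 24 h and did not pass (adjusted p = 0.18), or by 0.33 without untreated replicate 2. FKBP4, the immunophilin that partners HSP90 on the receptor, missed the threshold at 8 h, with a difference of 0.46 ± 0.08 (adjusted p = 0.051). These calls were not firm: STIP1 passed in 5 and HSP90AA1 in 3 of the 9 fits without 1 array. STIP1 was lost without 8 h replicate 1 (adjusted p = 0.089) or 3 (0.076), 24 h replicate 2 (0.050) or untreated replicate 3 (0.097). HSP90AA1 was lost without 8 h replicate 1 (0.127) or 3 (0.119), any 24 h array (0.054 to 0.065) or untreated replicate 3 (0.128). FKBP4 passed without untreated replicate 1 (0.030), with the low-signal filter (0.036) and with median centring (0.047).

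None of the tested genes listed as induced by glucocorticoids passed at either time in the values as deposited. SGK1 and TSC22D3, also on that list, were not tested. Of 30 measured members of that list, PER1, DUSP1 and KLF9 included and SGK1 and TSC22D3 left out, 0 passed at 8 h and 0 at 24 h by limma, with 6 and 2 at an unadjusted p under 0.05. Untreated means ran from 5.56 (CD163) to 12.76 (NFKBIA). Some, such as PDK4 at 5.85 and TAT at 6.15, were no higher than markers of other lineages such as MPO (7.35). Without a detection limit, a missing call in such genes cannot be told from probe background. At 8 h, 26 of the 30 lay below untreated, with a median of -0.12 against -0.01 over all clusters, and 7 did so without overlap of the arrays (17.6% of all clusters did not overlap in one direction or the other). At 24 h the median was -0.05 against 0.02 over all clusters, with 19 below untreated. The share of all clusters below untreated was not counted, so the counts of 26 and 19 are not read as a result about the list. The largest differences at 8 h were in PER2, another clock repressor, at -0.36 ± 0.09 (adjusted p = 0.12), and DDIT4, an inhibitor of mTORC1, at -0.35 ± 0.08 (adjusted p = 0.097). SOCS1, a feedback inhibitor of cytokine signalling, differed by -0.32 ± 0.07 (adjusted p = 0.079) and passed without untreated replicate 1 (0.039). That fit made the count 1 of 30, with 654 of the 22011 clusters called. SOCS1 was singled out after its values were seen. DDIT4 had 10.33, 10.22 and 10.23 untreated, 9.96, 9.74 and 10.02 at 8 h, and 10.12, 10.12 and 10.10 at 24 h, so the 8 h arrays were the lowest. With quantile normalization PER2 and DDIT4 passed at 8 h (both adjusted p = 0.048), making the count 2 of 30, with 390 of the 22011 clusters called. At 24 h ANXA1, an anti-inflammatory annexin singled out after its values were seen, differed by -0.27 ± 0.07 (0.12) and passed with median centring (-0.33, 0.044) and quantile normalization (-0.39, 0.022), making the count 1. Quantile normalization called 560 of the 22011 clusters at 24 h. At 24 h the largest were IL1R2, a decoy receptor for interleukin-1, at 0.36 ± 0.10 (adjusted p = 0.12), and TNFAIP3, a brake on NF-kB, at 0.30 ± 0.14 (adjusted p = 0.28). The TNFAIP3 difference was 0.11 without untreated replicate 2.

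Of 14 measured inflammatory genes that glucocorticoids repress, 0 passed at either time by limma, with 4 and 2 at an unadjusted p under 0.05. At 8 h 13 of the 14 lay below untreated, with a median of -0.13 against -0.01 over all clusters. At 24 h the median was -0.07 against 0.02. The share of all clusters below untreated was not counted, so the count of 13 is not read as a result about the list. VCAM1, an adhesion molecule, differed by -0.49 ± 0.20 at 8 h (adjusted p = 0.30) and PTGS2, the inducible cyclooxygenase, by -0.44 ± 0.14 (adjusted p = 0.19). Both had their low untreated value on replicate 2, and without that array they passed at -0.74 (adjusted p = 0.030) and -0.61 (adjusted p = 0.019), so the count at 8 h became 2 of 14. That fit called 291 of the 22011 clusters, against 131 with all arrays. At 24 h the cytokine IL1B differed by -0.51 ± 0.11 (adjusted p = 0.069) and the chemokine CXCL8 by -0.50 ± 0.14 (adjusted p = 0.12). In both, the arrays of 24 h cells lay below all untreated arrays (24.3% of all clusters did not overlap in one direction or the other). Group means were 7.15 untreated and 6.63 at 24 h for IL1B, and 7.70 and 7.20 for CXCL8. Markers of other lineages had signals of similar size, such as MPO at 7.35 untreated. IL1B passed with the low-signal filter (0.046) and with median centring (0.047), making the count 1 of 14. In the values as deposited, without a filter, 1.62% of all clusters passed at 24 h. Markers of cell types had medians on the same side at 8 h as the induced and repressed lists, those of B lymphocytes included. The medians were -0.18 over 5 T-cell, -0.12 over 5 monocyte, -0.10 over 4 natural killer and -0.08 over 4 epithelial markers. They were -0.06 over 4 fibroblast and -0.05 over 7 B-lymphocyte markers, with -0.09 in 1 erythroid marker. At 24 h the marker medians were also negative: -0.06 for T-cell, -0.10 for monocyte, -0.13 for natural killer and -0.03 for epithelial markers. They were -0.11 for fibroblast, -0.08 for B-lymphocyte and -0.12 for the erythroid marker. CD163 counts both as a monocyte marker and in the induced list. The part of the markers in the list medians was not tested.

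Around SGK1, 0 of 19 measured kinases, activators and substrates passed at either time by limma, with 3 and 1 at an unadjusted p under 0.05 and medians of -0.02 at both times. SGK2, the other SGK kinase with a cluster of its own, averaged 6.77 ± 0.084 untreated, 6.74 ± 0.022 at 8 h and 6.76 ± 0.00 at 24 h (SD, n = 3 each), its 3 arrays at 24 h being identical. The largest differences were in RICTOR, the subunit that defines mTORC2, at 0.42 ± 0.24 and 0.66 ± 0.24 (adjusted p = 0.45 and 0.20), MLST8, a subunit shared by both mTOR complexes, at -0.27 ± 0.10 at 8 h (adjusted p = 0.28), and GSK3B, a kinase inhibited by AKT and SGK, at 0.30 ± 0.18 at 24 h (adjusted p = 0.37). The low RICTOR value, 8.14 against 9.06 and 8.95 on the other untreated arrays, was that of untreated replicate 2. Without it RICTOR differed by 0.13 at 8 h and 0.37 at 24 h and GSK3B by 0.095 at 24 h. MLST8 differed by -0.16 without 8 h replicate 2, and GSK3B by 0.15 without 24 h replicate 1.

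Of 14 measured genes raised with FOXO activity, 0 passed at 8 h (5 at an unadjusted limma p under 0.05), and 1 rose and 0 fell at 24 h (0.831% and 0.791% of all clusters). That gene was KLHL24, a kelch-like ubiquitin ligase adaptor. Its log2 signal was 8.29, 7.72 and 8.15 untreated, 9.12, 9.03 and 8.93 at 8 h, and 9.60, 8.93 and 9.13 at 24 h. All arrays of treated cells lay above the untreated ones, with differences of 0.98 ± 0.19 at 8 h (limma adjusted p = 0.070) and 1.17 ± 0.19 at 24 h (adjusted p = 0.033). The call at 24 h held in 1 of the 9 fits without 1 array, that without untreated replicate 1 (0.036, with 0.054 to 0.105 in the other 8), and of the 9 fits at 8 h KLHL24 passed in that same one alone (0.046). At 8 h it also passed with median centring (0.045), quantile normalization (0.034) and the low-signal filter (0.045), and quantile normalization added DDIT4 to the list, as a fall (-0.39, 0.048). SESN1, a stress-induced inhibitor of mTORC1, differed by 0.39 ± 0.20 at 8 h and 0.61 ± 0.20 at 24 h without passing (adjusted p = 0.40 and 0.18), and its untreated replicate 2 was low as well, at 7.58 against 8.35 and 8.15, with a difference of 0.17 at 8 h without it.

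None of the 3 measured relatives of TSC22D3 passed. TSC22D1 averaged 8.07 ± 0.12 untreated, 8.23 ± 0.06 at 8 h and 8.22 ± 0.05 at 24 h, TSC22D2 8.90 ± 0.28, 9.06 ± 0.00 and 9.12 ± 0.07, and TSC22D4 8.59 ± 0.06, 8.66 ± 0.00 and 8.73 ± 0.08 (SD, n = 3 each). Differences from untreated were positive in all 3, from 0.07 to 0.16 at 8 h and from 0.14 to 0.22 at 24 h, with limma adjusted p from 0.26 to 0.59 and none at an unadjusted p under 0.05, and the arrays overlapped. The TSC22D2 difference rested on untreated replicate 2: without it the values were 0.00 at 8 h and 0.06 at 24 h. The 95% intervals at 24 h reached 0.33 for TSC22D1, 0.51 for TSC22D2 and 0.28 for TSC22D4. TSC22D2 and TSC22D4 had the same value on all 3 arrays at 8 h. These levels lay below that of the natural killer marker NKG7 (9.21 untreated), so a flat signal cannot be told from probe background.

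**Figure D3:**
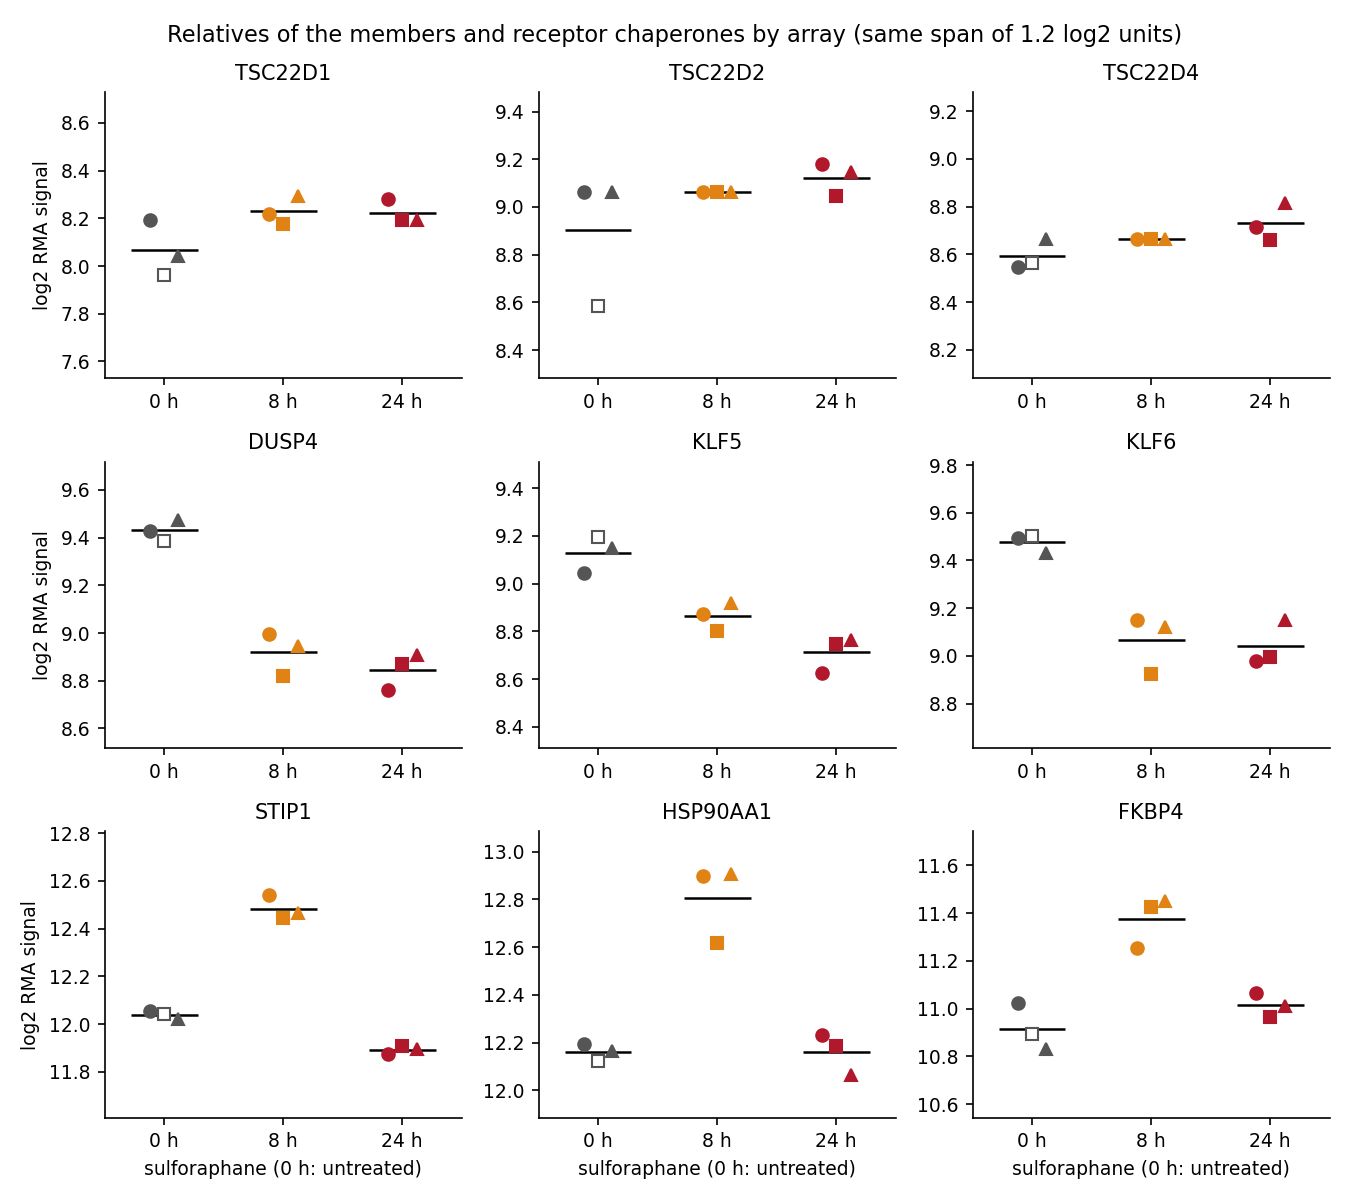
Log2 RMA signal on each array (y axis, 1.2 log2 units in every panel) for 3 relatives of TSC22D3, a relative of DUSP1, 2 relatives of KLF9 and 3 receptor chaperones, in untreated cells (0 h, grey), after 8 h (orange) and after 24 h (red). Symbols are as for the 6 genes: circles, squares and triangles are replicates 1, 2 and 3, the hollow square is untreated replicate 2, and lines are means. DUSP4, KLF5 and KLF6 lie below untreated at both times, and STIP1, HSP90AA1 and FKBP4 are highest at 8 h.

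Among the relatives of DUSP1 and KLF9, 3 fell. Of 10 measured MAP kinase phosphatases, 1 fell at 8 h (0.327% of all clusters did) and 1 at 24 h (0.791%), and 0 rose. In both cases it was DUSP4, a nuclear phosphatase of ERK and JNK, with 9.43, 9.39 and 9.47 untreated, 8.99, 8.82 and 8.95 at 8 h, and 8.76, 8.87 and 8.91 at 24 h. It fell by 0.51 ± 0.07 at 8 h (limma adjusted p = 0.023) and by 0.58 ± 0.07 at 24 h (adjusted p = 0.014), and all treated arrays lay below all untreated ones, while those at 8 h and 24 h overlapped. DUSP4 passed in 3 of the 9 fits without 1 array at 8 h and was lost without 8 h replicate 1 (0.089), 2 (0.057) or 3 (0.107), 24 h replicate 2 (0.062) or 3 (0.056) or untreated replicate 3 (0.128). At 24 h it passed in 6 and was lost without 24 h replicate 1 (0.065) or 2 (0.057) or untreated replicate 3 (0.078). DUSP8 passed at 8 h without untreated replicate 1 (-0.30, adjusted p = 0.046), against -0.25 ± 0.07 (0.14) with all arrays.

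Of 16 measured Krüppel-like factors, 0 passed at 8 h (4 at an unadjusted limma p under 0.05), and 2 fell and 0 rose at 24 h (0.791% and 0.831% of all clusters). KLF5, a factor of proliferating cells, had 9.04, 9.19 and 9.15 untreated, 8.87, 8.80 and 8.92 at 8 h, and 8.63, 8.75 and 8.76 at 24 h, and fell by 0.42 ± 0.07 at 24 h (adjusted p = 0.033). KLF6, an early response gene, had 9.50, 9.50 and 9.43 untreated, 9.15, 8.93 and 9.12 at 8 h, and 8.98, 8.99 and 9.15 at 24 h, and fell by 0.44 ± 0.08 at 24 h (adjusted p = 0.043). KLF5 passed in 2 of the 9 fits without 1 array (those without untreated replicate 1 or 8 h replicate 2, with adjusted p from 0.032 to 0.132 over the 9) and KLF6 in 1 (that without 8 h replicate 2, 0.035 to 0.176). The 24 h count of 2 became 0 in 7 of the 9 fits. KLF6 passed at 8 h with the low-signal filter and with median centring (both 0.048). KLF7 differed by -0.42 ± 0.12 at 8 h (adjusted p = 0.17) and passed without untreated replicate 2 (-0.56, adjusted p = 0.031) and with quantile normalization (0.033). KLF8 differed by 0.34 ± 0.09 at 24 h (0.11) and passed without untreated replicate 1 (0.43, 0.043). DUSP8 and KLF8 were singled out after their values were seen.

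The clock genes and the other FK506-binding proteins, relatives of PER1 and FKBP5, held 0 passing genes at either time by limma. Of 17 measured clock genes, 2 and 1 had an unadjusted p under 0.05, and the medians were -0.00 at 8 h and 0.04 at 24 h. NR1D2, a nuclear receptor that represses BMAL1, differed by 0.40 ± 0.20 at 8 h and 0.82 ± 0.20 at 24 h (adjusted p = 0.39 and 0.094), while CLOCK itself differed by 0.54 ± 0.26 at 24 h (adjusted p = 0.28). Without untreated replicate 2, CLOCK differed by 0.22 at 24 h and NR1D2 by 0.20 at 8 h. Of 10 measured FK506-binding proteins, 1 and 3 had an unadjusted p under 0.05, with medians of 0.03 and 0.07. FKBP14, an isomerase of the endoplasmic reticulum, differed by 0.65 ± 0.17 at 24 h (adjusted p = 0.10), and FKBP1A, the target of FK506 and rapamycin, by 0.41 ± 0.18 (adjusted p = 0.25), or by 0.23 without untreated replicate 2.

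**Figure D4:**
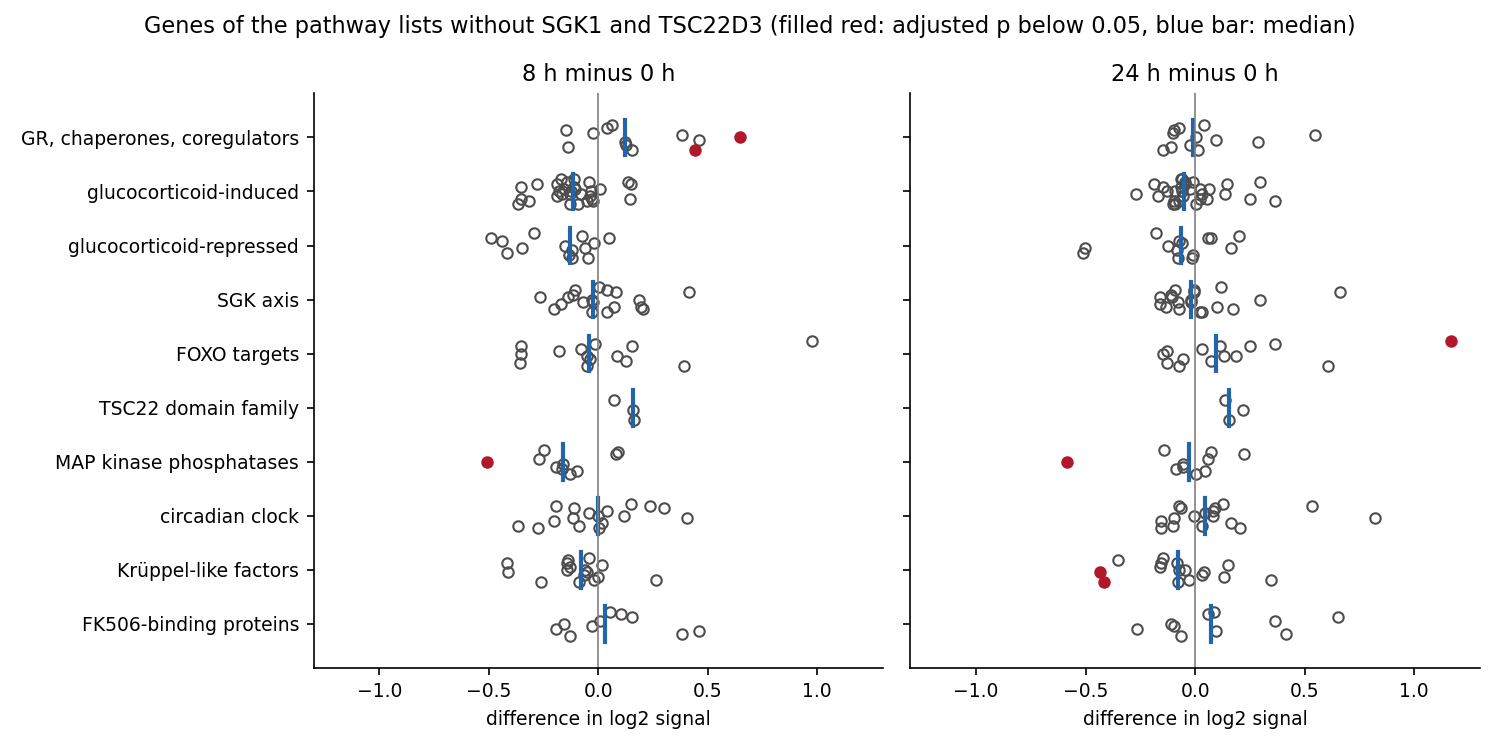
Difference in log2 signal from untreated cells (x axis) at 8 h (left) and 24 h (right) for each measured gene of 10 lists (rows), SGK1 and TSC22D3 left out. Filled red points passed a limma adjusted p of 0.05, open points did not, vertical position within a row has no meaning, and blue bars are list medians. HSP90AA1, STIP1 and DUSP4 are filled at 8 h, and KLHL24, DUSP4, KLF5 and KLF6 at 24 h.

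The genes most like SGK1 over the 9 arrays were sought among 1005 genes whose group means spanned at least 0.5. They were CDCA7, a MYC-responsive cell-cycle gene (Pearson's r = 0.978), the immediate early factor EGR1 (0.974), MCM4 of the replicative helicase (0.958) and CD93, a surface glycoprotein (0.948). Their differences at 8 h were smaller than that of SGK1, from -0.67 to -0.50. The genes most like TSC22D3, among 1006, were IFT43 of the ciliary transport complex (0.964), YPEL5 (0.952), TCTA (0.950) and HEXIM1, an inhibitor of transcription elongation (0.948). Their differences lay between 0.10 and 0.33 at 8 h and between 0.57 and 1.17 at 24 h. These correlations describe 9 arrays in 3 groups, so any gene with the same step between groups scores high.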

How the data were processed

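Expression was measured in 9 cultures of GM12878 cells, 3 per group; per the labels' design text each was a separate culture, and the p-values measure the spread between these cultures. The deposited values are log2 signals, 1 per transcript cluster. Per the labels, the authors made them for core genes by RMA in Affymetrix Expression Console, with sketch-quantile normalization. Software versions and a genome build were not named in the labels or the file. The number of arrays limits the precision.

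Of 22011 clusters, 14432 carried 1 symbol, 2408 several and 5171 none in the platform annotation; only the first were named. With limma 3.58.1 in R 4.3.3, 1 mean per group was fitted to all clusters and arrays, with eBayes moderated two-sided tests and Benjamini-Hochberg adjustment over all clusters per comparison; a call is an adjusted p below 0.05. The script was tested on simulated data. Members, lists, the naming rule and tests were chosen with earlier results of these data known. The rule named every called list member, up to 6 by smallest p, or the 2 with the largest absolute difference where none was called, at 8 h and 24 h, the relatives of SGK1 and TSC22D3, and 4 genes of highest correlation with each. Of the markers of B cells and other cell types, 1 was called, the B-cell kinase BLK (0.44 at 24 h, adjusted p = 0.038). Alternatives were a replicate block, a low-signal filter (25%), quantile normalization, median centring, trended and robust eBayes, array weights, fits of 2 groups, a threshold of 0.01, averaged clusters and leaving out each array; weights fitted gene by gene were added after seeing the data.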

Additional observations from a re-analysis of the deposited data

Results flagged for a closer look

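2 receptor chaperones changed differently at the 2 times, by the limma test of 24 h against 8 h. STIP1 averaged 11.89 at 24 h and 12.48 at 8 h, a difference of -0.59 ± 0.05 (SE, adjusted p = 0.0072), and all 3 arrays at 24 h lay below all 3 at 8 h. HSP90AA1 averaged 12.16 at 24 h and 12.81 at 8 h, a difference of -0.64 ± 0.09 (adjusted p = 0.039), again without overlap of the arrays. STIP1 did not pass without 24 h replicate 2 (adjusted p = 0.051), 8 h replicate 1 (0.066) or 8 h replicate 3 (0.058). HSP90AA1 passed without 8 h replicate 2 (0.018) or untreated replicate 2 (0.037) and in none of the other fits without 1 array (0.067 to 0.194).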

How the results depend on the processing

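SGK1 stayed negative against untreated in every fit run (-1.37 to -0.96 at 8 h, -1.32 to -1.01 at 24 h) and TSC22D3 positive (0.04 to 0.13 and 0.32 to 0.49). The set was selected on these 2 genes in the same arrays, so their stable signs are a description and lend no support. The 4 tested genes passed in no fit but that with array weights, whose default estimate did not reach its tolerance: 2 at 8 h (PER1 and DUSP1) and 1 at 24 h (PER1). Signs near 0 turned. DUSP1 at 24 h was -0.0104 with array weights, -0.00074 with weights gene by gene, -0.0610 with median centring, -0.0698 with quantile normalization and -0.0396 to 0.0636 without 1 array. KLF9 at 24 h was 0.016 with array weights, 0.0088 with weights gene by gene and -0.0706 to 0.0085 (the last without untreated replicate 2) when 1 array was left out. NR3C1 at 8 h was -0.0626, -0.0479 and -0.0673 to 0.226 in the same fits, and PER1 between 24 h and 8 h -0.0018 with quantile normalization. Centring shifted the median of all clusters by -0.06 at 24 h.

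Counts of all clusters depended on the fit. Against 131 at 8 h, 357 at 24 h and 72 between 24 h and 8 h, fits of 2 groups gave 9, 20 and 25, array weights 9603, 9010 and 1516, weights gene by gene 1703, 1889 and 1325, quantile normalization 390, 560 and 109, the threshold of 0.01 19, 24 and 19, and leaving out 1 array 9 to 654, 21 to 768 and 4 to 160. At 8 h the low-signal filter gave 302 and median centring 288. The cause was not tested. The replicate block gave 85 at 8 h and 44 between 24 h and 8 h, and HSP90AA1 and DUSP4 at 8 h (adjusted p = 0.053 and 0.054) and KLF6 at 24 h (0.060) did not pass, while CXCL8 (0.036), NR1D2 (0.039) and FKBP14 (0.034) passed at 24 h. Only 3 of 9 same-number pairs of arrays deviated together at r over 0.1 (-0.14 to 0.39), so pairing of the cultures by number is not established, although the 2 highest of these r (0.38 and 0.39) join same-numbered arrays of 24 h and untreated cells. Fits of 2 groups lost all 7 list calls made against untreated cells. The block also lost HSP90AA1 between 24 h and 8 h (0.076).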

Other observations

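2 of the proposed genes lay on clusters that carry a second symbol, so their signal cannot be assigned to one gene. Cluster 2951567, of FKBP5, the immunophilin that restrains the receptor, and LOC285847, had 10.84, 10.47 and 10.70 untreated, 10.49, 10.50 and 10.37 at 8 h, and 10.93, 10.40 and 10.55 at 24 h. Its differences were -0.22 ± 0.15 at 8 h and -0.05 ± 0.15 at 24 h (limma adjusted p = 0.49 and 0.86). Of the 2 clusters of SGK3, a relative of SGK1 that binds endosomal lipid, and C8orf44, cluster 3101765 had 7.59, 6.59 and 7.35 untreated, 7.60, 7.72 and 7.49 at 8 h, and 8.53, 7.84 and 7.90 at 24 h. All arrays at 24 h lay above the untreated ones, by 0.92 ± 0.27 (adjusted p = 0.14), and the low untreated value was again that of replicate 2. Over all clusters, 24.3% did not overlap at 24 h in one direction or the other. Cluster 3101802 differed by -0.02 ± 0.16 at 8 h and 0.34 ± 0.16 at 24 h (adjusted p = 0.97 and 0.27).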
